A study of Mus musculus with 8 samples.

Results

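The genes of fatty acid and sterol synthesis were followed through 4 RNA sequencing libraries of stem cells of the mouse hair follicle, which reside in its bulge. They were chosen by name: 38 genes were listed, and 37 of them have a row in the deposited gene tables, out of 28792 gene symbols in all. The expression of Hmgcs1 is not analysed here, and only its promoter is read below. The list was divided by role into a sterol branch (12 listed, 11 with values), general fatty acid genes (15) and genes known for their use in sebocytes, the lipid-filled cells of the sebaceous gland (11).

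The first pair of libraries came from back skin of female C57BL6/129Sv mice at postnatal day 99. All of these mice carried K15CrePGR and Rosa-YFPfl/stop/fl, and differed in Ctnnb1, the gene of β-catenin: Ctnnb1+/fl in the library labelled Het and Ctnnb1fl/fl in the library labelled cKO. The labels name both telogen, the resting phase, and the onset of growth for this pair. K15CrePGR is a Cre recombinase fused to a progesterone receptor domain and driven by a keratin 15 promoter, and its induction schedule is not stated in the labels. The second pair came from male C57BL6 mice at day 24, whose follicles were passing from rest into growth. They were heterozygous for a LacZ reporter in the Wnt target gene Axin2 (Axin2LacZ/+), and reporter activity was used to sort their bulge cells, which gave a LacZ(+) and a LacZ(-) library. Each group had 1 library, so no difference below has a replicate check or a test, and the labels do not give the number of mice behind a library. The pairs also differ in sex, age and strain and come from separate tables, so differences are taken only within a pair. Means and ranges over the 4 libraries serve only to rank and describe levels, and not to compare the pairs.

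Values are FPKM, mapped fragments scaled by transcript length and by the library's total, which can be compared between genes. Differences are log2 ratios of FPKM + 1, taken where at least 1 of the pair's libraries reached 1 FPKM, and a gene is called 2-fold higher or lower at a log2 difference of 1 or -1. Of 13014 genes measured in the first pair, 1.8% were 2-fold higher and 2.29% 2-fold lower under the cKO label. Of 13283 in the second pair, 4.67% were 2-fold higher and 2.6% 2-fold lower in LacZ(+) cells. After centring on the median of well expressed genes (both libraries at 5 FPKM or above), which lay at 0.07 in the first pair and -0.17 in the second, 804 were 2-fold higher and 224 2-fold lower in the second pair, against 620 and 346 before. Centred values below are relative to these medians, so after centring as many well expressed genes lie above 0 as below it. Centred counts are to be read against that even split, not against the shares before centring. All 11 listed bulge markers reached 1 FPKM in each pair: Cd34 lay between 223 and 752 FPKM, Lhx2 between 145 and 285 and Sox9 between 73.3 and 119.5, while Tcf7l1 (10.9 to 14.6) and Tcf7l2 (12.99 to 23.01) were near the level of the median gene. Krt15 is listed at 0 in LacZ(-) cells and lay between 5951 and 7528 in the other libraries. Ctnnb1 itself stood at 370 FPKM under the cKO label and 251 under the Het label; a gene-level value does not resolve the floxed part of the gene, so it does not check the labels. Axin2 stood at 2.12 and 16.3 FPKM in that pair, and at 19.0 and 9.10 in LacZ(+) and LacZ(-) cells.

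Cells build fatty acids from acetyl-CoA in the cytosol: Acly makes acetyl-CoA from citrate, Acaca turns it into malonyl-CoA, and Fasn assembles palmitate, which elongases (Elovl) lengthen and desaturases (Scd, Fads) unsaturate. Acetyl-CoA also feeds the mevalonate pathway, which runs through isoprenoids and squalene to cholesterol. Both routes are controlled by membrane-bound transcription factors encoded by Srebf1 and Srebf2, which are released when sterols are scarce and are held back by Insig proteins. In skin, these lipids supply sebum, the barrier of the epidermis and the membranes of dividing cells.

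Most of the genes were expressed in all 4 libraries. The median measured gene stood at 12.0 to 12.7 FPKM depending on the library. Of the 37 members, 18 lay above that median under the cKO label, 17 under the Het label, 23 in LacZ(+) and 18 in LacZ(-) cells. Members under 1 FPKM numbered 6, 7, 5 and 5 in the same order. By the mean over the 4 libraries, the highest general fatty acid genes were Elovl1, an elongase of saturated very long chains, Elovl5, an elongase of polyunsaturated chains, and Srebf1. By the same mean the highest sterol genes were Dhcr7, Fdps and Srebf2, and the highest sebocyte genes Fabp5, Plin2 and Scd1. The order differs between libraries: Elovl1 and Dhcr7 led their groups in each, but Fabp5 led the sebocyte genes in LacZ(+) cells only, and Plin2 in the other 3 libraries. In contrast, 4 sebocyte members stayed under 1 FPKM in every library, while Plin2, Scd1, Dgat2 and Fabp5 reached 14.3 FPKM or more in each. Mc5r, the melanocortin receptor of sebaceous glands, reached at most 0.341 FPKM. Pparg, a nuclear receptor of sebocyte and fat cell differentiation, reached at most 0.453. The wax synthase gene Awat1 reached at most 0.397 and the elongase gene Elovl3 at most 0.750. Adipocyte markers were also near the bottom: the 7 listed summed to 0.612 and 0.250 FPKM in the libraries labelled cKO and Het, with 1 and 5 of them at 0, and to 4.05 and 2.34 in LacZ(+) and LacZ(-) cells, with 2 at 0 in each. Lpl and Fabp4 made up nearly all of the latter sums. In these bulk libraries, fewer cells of a type and less RNA per cell cannot be told apart.

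**Figure D1:**
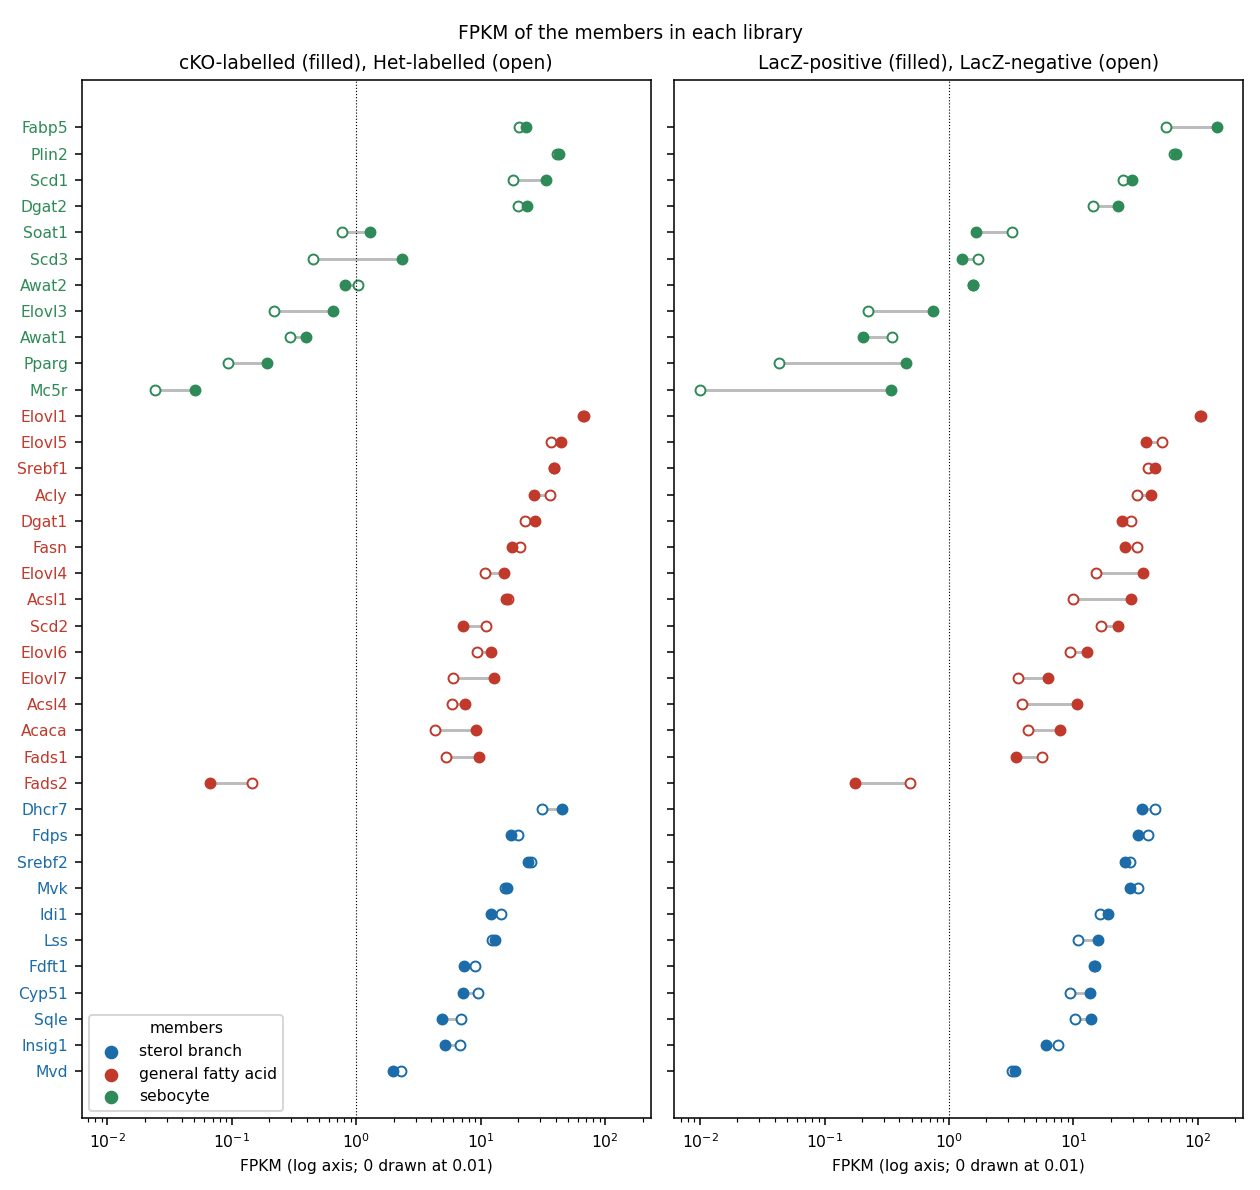
FPKM of the 37 members with values on a log axis, ordered by mean level within their group, in the libraries labelled cKO and Het (left) and in LacZ(+) and LacZ(-) cells (right); each point is 1 library and the dotted line marks 1 FPKM. Fads2, Elovl3, Awat1, Pparg and Mc5r stay under 1 FPKM in every library, and Fabp5, Acsl1, Acsl4 and Elovl4 have the widest gaps above 1 FPKM in the right panel.

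The sterol branch differed little in size within either pair, and no measured member was 2-fold higher or lower. In the first pair 8 of 11 were lower under the cKO label and 3 were higher, while 39.1% of all measured genes were lower there. The group's median was -0.16, or -0.23 when centred. After centring 9 of 11 members were lower, where well expressed genes split evenly by construction. The lowest were Sqle, Cyp51 and Insig1. Sqle, the squalene epoxidase gene, stood at 4.84 FPKM under the cKO label and 6.87 under the Het label, a log2 difference of -0.43. Cyp51, the lanosterol demethylase gene, stood at 7.15 and 9.51 (-0.37). Insig1 stood at 5.17 and 6.84 (-0.34). Dhcr7, whose enzyme catalyses the final reduction to cholesterol, went the other way: it stood at 44.6 FPKM under the cKO label and 30.7 under the Het label (0.52). Because Dhcr7 is the most abundant member of the branch, the summed FPKM of the branch were alike, 154 and 153, whereas without Dhcr7 they were 109 and 122. Cell cycle genes, which were lower under the same label, summed to 6.34 and 45.9 FPKM, and their part in these values was not tested.

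The other steps of the branch lay closer together in that pair. Mvk, which phosphorylates mevalonate, stood at 16.1 and 15.7 FPKM in the libraries labelled cKO and Het. Mvd, the decarboxylase of the next stage, stood at 1.96 and 2.27; its table interval is shared by 152 rows, so reads of neighbours can enter its value. Idi1, the isomerase that makes the reactive isoprene unit, stood at 12.1 and 14.4. Fdps, the farnesyl diphosphate synthase gene, stood at 17.6 and 19.8, and Fdft1, the squalene synthase gene, at 7.38 and 9.03. Every step from Idi1 to Sqle was thus lower under the cKO label by a small margin. Lss, the lanosterol synthase gene between Sqle and Cyp51, stood at 13.0 and 12.2, and the regulator Srebf2 at 23.9 and 25.5. With only the 6 members alone in their table interval, the median of the branch was -0.29.

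In LacZ(+) against LacZ(-) cells, 5 sterol members were higher and 6 lower, where 36.6% of all measured genes were higher and 63.4% lower. The median was -0.04, and its sign turned when centred (0.13). After centring 7 of 11 were higher, where well expressed genes split evenly by construction. Sqle, Lss and Cyp51, which act in turn on squalene and lanosterol, had the largest positive differences. Sqle stood at 13.7 FPKM in LacZ(+) and 10.2 in LacZ(-) cells (0.39). Lss stood at 15.6 and 10.9 (0.48), and Cyp51 at 13.6 and 9.42 (0.48). Idi1, at 18.9 and 16.4, was higher by less (0.19). Dhcr7 had the lowest difference of the branch, at 35.6 and 45.5 (-0.35), followed by Insig1 at 5.99 and 7.57 (-0.29). Fdps stood at 33.0 and 39.3, Mvk at 28.5 and 33.2, Srebf2 at 25.8 and 28.4, Fdft1 at 14.5 and 14.9 and Mvd at 3.37 and 3.22. Without Dhcr7 the branch summed to 172.9 and 173.6 FPKM. Cyp51 and Sqle were therefore lower under the cKO label but higher in LacZ(+) cells, with Dhcr7 in the opposite order in both pairs; each of these gaps was under 2-fold.

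Promoters of the members were read from RefSeq sequences of build GRCm38.p6, from 250 bases before to 50 after each annotated start, and 27 of the 38 listed genes had an entry. Both strands were searched for CCAAT, the box bound by NF-Y, a known partner of the SREBP factors; for TCACNCCAC, a form of the sterol regulatory element; for CACGTG, an E-box; and for CTTTGAT, a TCF/LEF motif. In the members, matches of different strings did not overlap, and CACGTG reads the same on both strands. CCAAT was found in a promoter of 9 of 9 sterol genes with an entry (Hmgcs1 included), 7 of 12 general fatty acid genes and 5 of 6 sebocyte genes, and in 41.1% of the 27025 genes of the whole table. The sterol element string was found for 2 of 27 genes, Hmgcs1 and Acsl1, against 1.44% of all genes. CACGTG was found for 5 of 27 against 8.09% of all genes, and CTTTGAT for 0 of 27 against 4.29%. Genes with several starts count once if any promoter holds the string. A match is a description of the letters and not a bound site, and no chance test was made.

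The 250 bases before the start are shown for sterol enzymes on either side of squalene, because CCAAT is what their promoters share, and for Acsl1, the general fatty acid gene with the largest difference in the LacZ pair. Capitals mark CCAAT on either strand (ATTGG when read on the other strand) and, in Acsl1 only, also the sterol element string. The windows are chr5:114444019-114444268, strand plus, for Mvk; chr13:8885356-8885605, strand plus, for Idi1; chr10:76531355-76531604, strand plus, for Lss; chr5:4104698-4104947, strand minus, for Cyp51; and chr8:46490716-46490965, strand plus, for the Acsl1 start that holds the string, all in GRCm38.p6 and read 5′ to 3′ on the gene's strand.
Mvk: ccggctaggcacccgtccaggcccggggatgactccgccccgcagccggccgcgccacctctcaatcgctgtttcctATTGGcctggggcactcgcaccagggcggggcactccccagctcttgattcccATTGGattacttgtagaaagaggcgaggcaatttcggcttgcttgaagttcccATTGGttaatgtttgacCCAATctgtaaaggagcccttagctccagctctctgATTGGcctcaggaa
Idi1: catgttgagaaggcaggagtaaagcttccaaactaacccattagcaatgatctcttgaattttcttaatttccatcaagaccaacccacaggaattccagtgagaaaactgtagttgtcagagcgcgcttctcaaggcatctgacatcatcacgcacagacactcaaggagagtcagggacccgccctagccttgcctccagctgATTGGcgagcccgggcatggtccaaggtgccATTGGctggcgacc
Lss: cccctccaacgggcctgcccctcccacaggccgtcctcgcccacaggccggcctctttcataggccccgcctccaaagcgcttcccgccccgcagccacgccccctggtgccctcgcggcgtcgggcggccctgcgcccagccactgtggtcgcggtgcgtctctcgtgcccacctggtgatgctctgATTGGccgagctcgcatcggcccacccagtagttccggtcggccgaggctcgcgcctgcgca
Cyp51: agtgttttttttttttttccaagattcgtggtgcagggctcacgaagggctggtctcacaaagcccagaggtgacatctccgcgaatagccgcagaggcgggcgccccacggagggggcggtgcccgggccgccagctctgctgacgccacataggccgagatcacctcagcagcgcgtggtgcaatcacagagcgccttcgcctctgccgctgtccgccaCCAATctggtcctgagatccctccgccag
Acsl1: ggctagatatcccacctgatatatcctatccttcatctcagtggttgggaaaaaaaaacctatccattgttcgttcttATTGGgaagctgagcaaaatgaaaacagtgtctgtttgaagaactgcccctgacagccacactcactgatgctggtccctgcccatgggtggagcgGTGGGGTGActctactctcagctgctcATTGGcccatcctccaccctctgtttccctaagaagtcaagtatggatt
Mvk holds 5 boxes, which begin 173, 120, 67, 50 and 14 bases before the start. Idi1 holds 2, at 45 and 14 bases, Lss 1 at 62 and Cyp51 1 at 29. Acsl1 holds 2 boxes, at 172 and 49 bases, on either side of the sterol element string at 76. In the LacZ pair Mvk was on the lower side of 0 and Idi1, Lss and Cyp51 on the higher side, so promoters with the box belonged to genes on both sides.

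General fatty acid genes spread more widely than the sterol branch. Fads2, a desaturase gene of polyunsaturated fatty acids, stayed under 1 FPKM in every library (0.0669 to 0.486) and is not in the counts, which leaves 14 of 15. Between the Ctnnb1 libraries 9 of 14 were higher and 5 lower under the cKO label, where 60.9% of all measured genes were higher, and the median was 0.26 (0.19 centred). None passed the 2-fold line. The largest were Elovl7, an elongase of saturated long chains, at 12.9 FPKM under the cKO label and 5.97 under the Het label (0.99), and Acaca, at 9.18 and 4.29 (0.95). Their FPKM differed by 2.15 and 2.14 times; the pseudocount keeps both just under the line, and with a pseudocount of 0.1 both were counted. Fads1, the desaturase gene that acts after Fads2, stood at 9.69 and 5.27 (0.77), and Elovl4, whose elongase makes the longest chains of skin ceramides, at 15.2 and 10.8 (0.46). Acaca shares its table interval with other rows, 3 in all.

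The first and last enzymes of palmitate synthesis did not go with Acaca in that pair. Acly stood at 26.6 FPKM under the cKO label and 36.2 under the Het label (-0.43), and Fasn at 17.9 and 20.7 (-0.20). Scd2, a stearoyl-CoA desaturase gene, was the lowest at 7.13 and 11.02 (-0.56). The remaining genes lay between these extremes. Elovl6, which lengthens palmitate, stood at 12.0 and 9.24, Elovl5 at 44.4 and 36.5, and Elovl1 at 66.4 and 67.7. The acyl-CoA synthetase genes Acsl4 and Acsl1, which activate fatty acids for use, stood at 7.51 and 5.87 and at 15.8 and 16.4. Dgat1, for the final step of triacylglycerol synthesis, stood at 27.0 and 22.6, and Srebf1 at 39.0 and 38.7.

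In the LacZ pair, 3 of 14 general fatty acid genes were 2-fold higher in LacZ(+) cells, against 4.67% of all measured genes. None was 2-fold lower, against 2.6%, and 9 of 14 were higher, against 36.6%. The median was 0.40, or 0.57 when centred. Acsl1 (mm9 chromosome 8, 47556394 to 47621405) stood at 28.8 FPKM in LacZ(+) and 9.90 in LacZ(-) cells (1.45). Acsl4 (mm9 chromosome X, 138752535 to 138825078), a synthetase with a preference for arachidonic acid, stood at 10.7 and 3.83 (1.28). Elovl4 (mm9 chromosome 9, 83672299 to 83699912) stood at 36.5 and 15.1 (1.22). Each of the 3 is alone in its table interval. In the same cells the markers of epidermal differentiation, a list chosen with earlier results of these data known, summed to 4995 and 2077 FPKM, with 9 of 9 higher. With a pseudocount of 5 the value of Acsl4 was 0.83, under the line.

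Next in size were Acaca and Elovl7, the leading genes of the first pair. Acaca stood at 7.86 FPKM in LacZ(+) and 4.35 in LacZ(-) cells (0.73), and Elovl7 at 6.21 and 3.57 (0.66). Elovl6 stood at 12.9 and 9.34 (0.42), and Scd2 at 22.6 and 16.6 (0.42). Acly was on the higher side at 41.9 and 32.1 (0.37), and Srebf1 at 44.9 and 39.7 (0.17), while Fasn stood at 25.99 and 32.24 (-0.30). The lowest differences were those of Fads1, at 3.43 and 5.54 (-0.56), and Elovl5, at 38.5 and 50.9 (-0.40), neither of them 2-fold. Dgat1 stood at 24.6 and 29.0 and Elovl1 at 103.7 and 105.8.

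Of the 11 sebocyte genes, Elovl3, Awat1, Pparg and Mc5r stayed under 1 FPKM in every library, so the counts cover 7. Between the Ctnnb1 libraries 6 of 7 were higher under the cKO label, where 60.9% of all measured genes were. Of the 7, 1, Scd3, was 2-fold higher, against 1.8% of all measured genes. The median was 0.22. When centred it was 0.16, with 5 of 7 higher, where well expressed genes split evenly by construction. Scd3, a desaturase gene of the sebaceous gland (mm9 chromosome 19, 44277758 to 44318506), stood at 2.33 FPKM under the cKO label and 0.451 under the Het label (1.20). It passed the minimum through the library labelled cKO alone, and with a pseudocount of 5 its difference was 0.43. Scd1 (mm9 chromosome 19, 44468940 to 44482199), the main desaturase gene of sebaceous glands, stood at 33.5 and 18.2 (0.85). Dgat2, a triacylglycerol synthesis gene, stood at 23.47 and 19.97, Soat1, whose enzyme esterifies cholesterol, at 1.29 and 0.761, and Fabp5, a fatty acid carrier of keratinocytes, at 23.1 and 20.4. Plin2, a coat protein of lipid droplets, stood at 42.1 and 41.3, and the wax synthase gene Awat2 at 0.814 and 1.03. Soat1 also passed the minimum through the library labelled cKO alone, and Awat2 through the library labelled Het alone. The minimum thus fixed the direction of Scd3, Soat1 and Awat2 in the count. With a minimum of 5 FPKM, 4 genes remained, with a median of 0.20 and 0 past the line.

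Between LacZ(+) and LacZ(-) cells 5 of 7 sebocyte members were higher, where 36.6% of all measured genes were. Of the 7, 1 was 2-fold higher, against 4.67% of all measured genes, and 0 were 2-fold lower, against 2.6%. Fabp5 (mm9 chromosome 3, 10012547 to 10016607) was the member past the line, at 143 FPKM in LacZ(+) and 54.9 in LacZ(-) cells (1.36), which made it the most abundant member in LacZ(+) cells. Dgat2 stood at 22.6 and 14.3 (0.62) and Scd1 at 29.5 and 25.0 (0.23). Soat1 was on the lower side at 1.66 and 3.18 (-0.65), as was Scd3 at 1.26 and 1.70 (-0.26). Plin2, at 67.2 and 64.6, and Awat2, at 1.56 and 1.55, hardly differed. The group's median of 0.06 (0.23 centred) was thus not that of its leading gene. Of the genes under 1 FPKM, Mc5r is listed at 0 in LacZ(-) cells and stood at 0.341 in LacZ(+) cells, and Pparg stood at 0.453 and 0.0433.

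**Figure D2:**
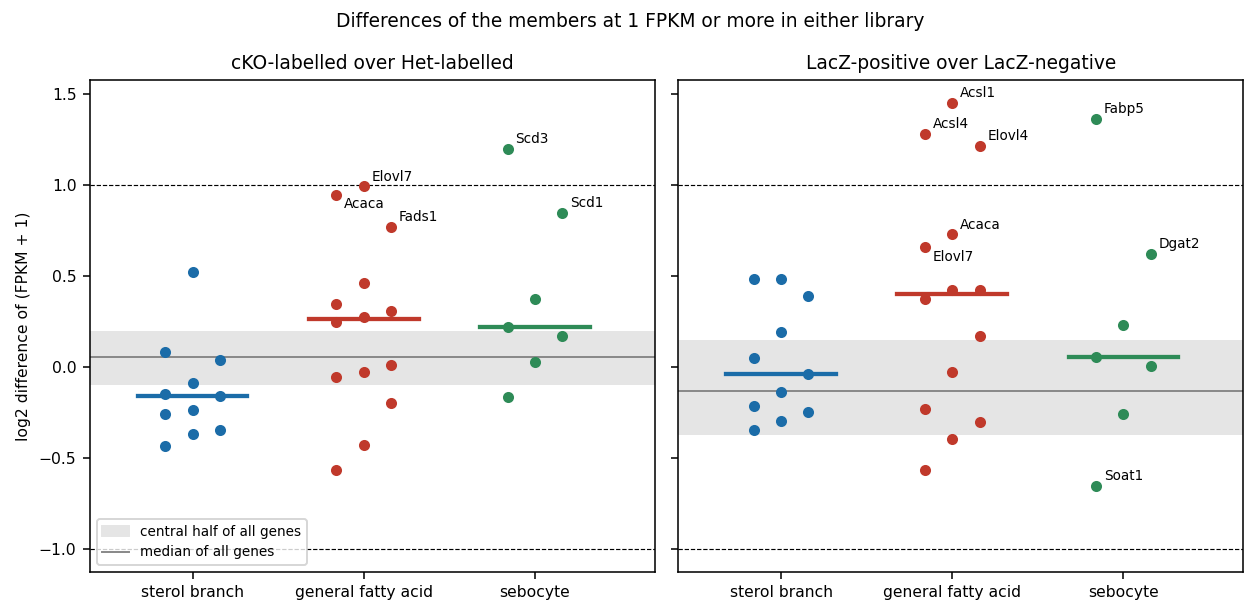
Log2 differences of FPKM + 1 of the measured members in the first pair (left) and the LacZ pair (right); each point is a gene, coloured bars are group medians, the grey band spans the quartiles of all measured genes and dashed lines mark 2-fold. The sterol median lies at -0.16 on the left, and Acsl1, Acsl4, Elovl4 and Fabp5 are above the upper dashed line on the right.

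Relatives within an enzyme family differed in direction. Of the summed FPKM of Scd1, Scd2, Scd3 and Scd4, Scd1 made up 78.0% under the cKO label and 61.1% under the Het label, and Scd2 16.6% and 37.0%. In the LacZ pair the same shares were 55.0% and 57.6% for Scd1 and 42.1% and 38.1% for Scd2. The 4 genes are close copies of each other on chromosome 19, so counting could move reads among them, and these shares are uncertain to that extent. Elovl1 was the leading elongase gene in every library, with 43.8% to 57.2% of the family's summed FPKM. Elovl4 made up 18.4% in LacZ(+) and 8.17% in LacZ(-) cells, and Elovl5 19.4% and 27.5%. Among the acyl-CoA synthetase genes Acsl1, Acsl3, Acsl4 and Acsl5, Acsl1 made up 25.8% in LacZ(+) and 13.3% in LacZ(-) cells. Acsl3, which is not a member, stood at 30.9 and 30.7 FPKM, so the family's higher sum in LacZ(+) cells (112 against 74.5 FPKM) lay in the other 3.

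**Figure D3:**
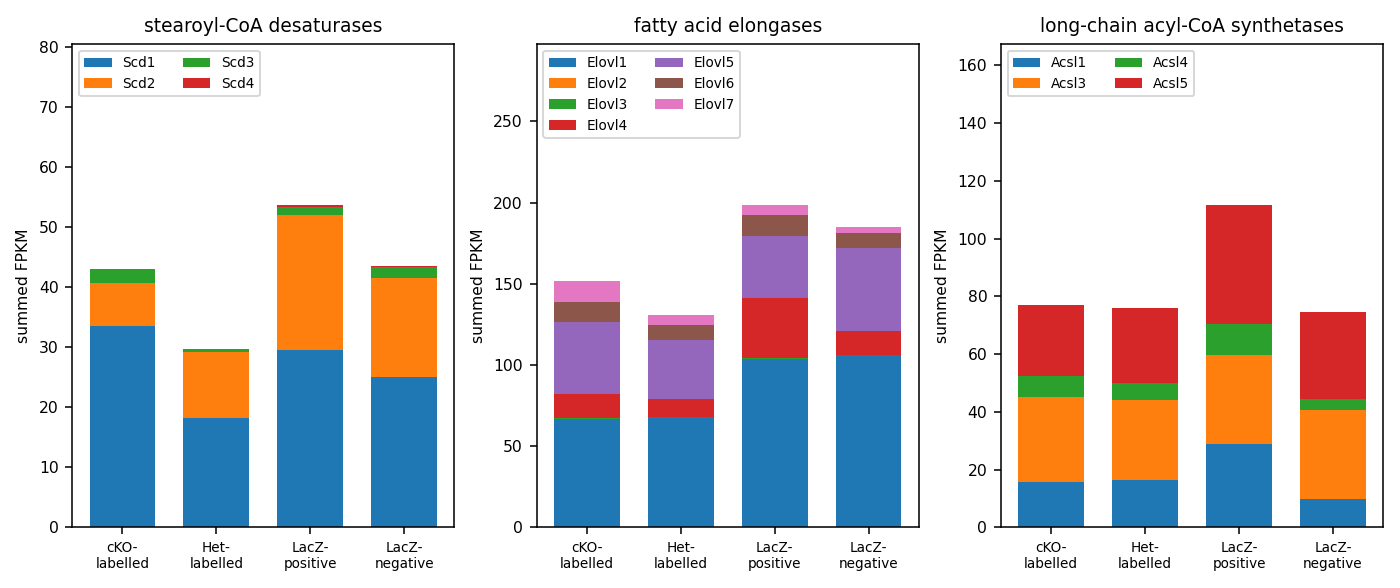
Summed FPKM of the stearoyl-CoA desaturase, fatty acid elongase and long-chain acyl-CoA synthetase genes in each library, 1 library per bar, with a colour for each gene. Scd1 takes 78.0% of the first bar of the desaturases, and the Elovl4 and Acsl1 segments are larger in LacZ(+) than in LacZ(-) cells.

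The 2 pairs share no library, and 32 members were measured in both. Of these, 11 were higher both under the cKO label and in LacZ(+) cells, 6 were lower in both, 8 were lower under the cKO label but higher in LacZ(+) cells, and 7 the reverse. Of 12499 genes measured in both pairs the corresponding shares were 18.6%, 22.7%, 16.3% and 42.3%. Of sterol members 4 of 11 were lower under the cKO label but higher in LacZ(+) cells (Sqle, Cyp51, Idi1 and Mvd), and as many, 4 of 11, were lower in both (Srebf2, Insig1, Fdps and Fdft1). Higher in both were 6 of 14 general fatty acid members (Acaca, Elovl7, Elovl6, Elovl4, Acsl4 and Srebf1) and 4 of 7 sebocyte members (Scd1, Dgat2, Fabp5 and Plin2). After centring, 13 of the 32 were lower under the cKO label but higher in LacZ(+) cells, a combination that 30.8% of all genes then showed; these were 6 of 11 sterol, 5 of 14 general fatty acid and 2 of 7 sebocyte members. These numbers are small, and no test of a difference between the branches was made.

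**Figure D4:**
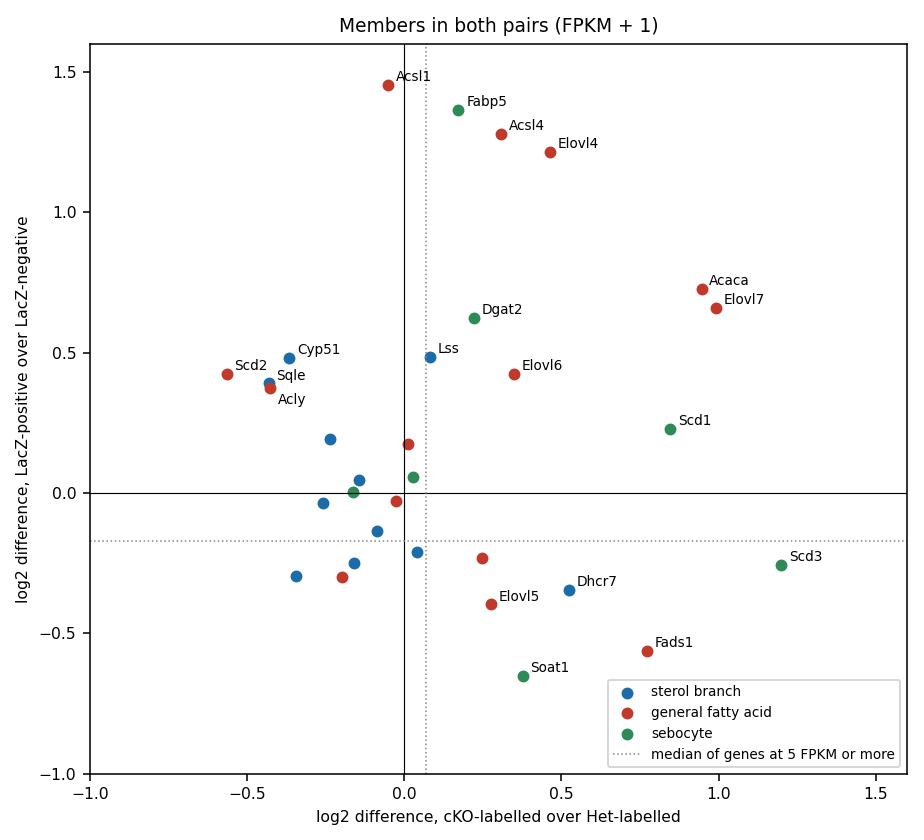
Log2 difference of FPKM + 1 in the first pair (horizontal) against that in the LacZ pair (vertical) for the 32 members measured in both; each point is a gene, coloured by group, and dotted lines mark the medians of 0.07 and -0.17. Acaca and Elovl7 lie to the upper right, Cyp51, Sqle, Acly and Scd2 to the upper left, and Fads1, Scd3, Dhcr7 and Soat1 to the lower right.

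Further genes of the same pathways were read as lists. Beside them, 60.9% of all measured genes were higher in the first pair and 36.6% in LacZ(+) cells. The shares of all measured genes that were 2-fold higher were 1.8% and 4.67%. Of 26 other sterol genes, which cover the remaining enzymes, sterol transport and the SREBP machinery, 24 were measured in the first pair, with 11 higher, 13 lower and 0 past the line in either direction. In the LacZ pair 25 were measured, with 12 higher and 13 lower. Insig2, the second Insig gene, was the only one past the line: it stood at 93.4 FPKM in LacZ(+) and 42.5 in LacZ(-) cells (1.12), opposite in direction to Insig1. Insig2 in the first pair stood at 61.0 and 57.1. The minimum fixed the direction of Abcg1 in both pairs and of Nr1h3 in the LacZ pair, where only 1 library of the pair reached it. Nr1h2, which encodes a sterol-sensing nuclear receptor, had the highest mean level over the 4 libraries, 66.8 to 74.7 FPKM, although Insig2 was above it in LacZ(+) cells. Of 22 other fatty acid genes 19 and 17 were measured, 11 and 10 of them higher (57.9% and 58.8%), with 0 past the line in either pair. The minimum fixed the direction of Fads3 in the first pair and of Mlxipl in the LacZ pair. Tecr, the last enzyme of each elongation cycle, was the most abundant, at 92.9 and 117.6 FPKM in the libraries labelled cKO and Het and 166 and 248 in LacZ(+) and LacZ(-) cells. Hsd17b12, which acts in the same cycle, stood at 54.7, 46.8, 56.6 and 55.8 in the same order.

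Of 17 other sebocyte genes 11 were measured in the first pair, with 7 higher and 1 past the line: Fa2h, a fatty acid hydroxylase gene, at 2.92 FPKM under the cKO label and 0.869 under the Het label (1.07). Fa2h passed the minimum through the library labelled cKO alone, and Prdm1 (0.708 and 1.76) through the library labelled Het alone. The minimum thus fixed the directions of Fa2h and Prdm1. In that pair 60.9% of all measured genes were higher and 1.8% 2-fold higher. In the LacZ pair 36.6% of all measured genes were higher and 4.67% 2-fold higher. Of the 17, 12 were measured there, 9 of them higher. Fa2h (1.69 and 0.366) and Cidea (1.03 and 0.856) passed the minimum through LacZ(+) cells alone, so the minimum fixed their direction. Past the line were 4 genes. These were Krt79, a keratin of the upper follicle, at 362 and 119 (1.59), Acsbg1, another acyl-CoA synthetase gene, at 74.5 and 29.9 (1.29), Mgst1 at 35.89 and 16.04 (1.11) and Cyp4f39, whose enzyme hydroxylates very long chains for barrier ceramides, at 6.66 and 2.68 (1.06). Apoc1, a lipoprotein gene, had the highest mean level of that list over the 4 libraries, 258 to 444 FPKM. Of 16 barrier lipid genes, which share Cyp4f39, 9 of 16 were higher in LacZ(+) cells and 2 passed the line; the other was Abca12, the lipid transporter of the barrier, at 6.66 and 1.66 (1.52). In the first pair 15 of them were measured, 10 higher, and 0 passed the line. Degs1 and Sptlc1, of ceramide synthesis, had the highest mean levels there over the 4 libraries, at 92.2 to 118.3 and 32.1 to 37.4 FPKM.

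Beside the differences of the LacZ pair, markers of epidermal differentiation (Krt79 among them) lay on the same side. All 9 of 9 listed were higher in LacZ(+) cells, against 36.6% of all measured genes, and none is listed at 0. This list, like the others, was chosen with earlier results of these data known, so the count is a description only. The 6 markers that were 2-fold higher, against 4.67% of all measured genes, were Defb6 (2.09), Krt79 (1.59), Krt1 (1.54), Krt10 (1.24), Krtdap (1.15) and Flg2 (1.05). Of the 11 bulge markers 5 were higher and 6 lower in LacZ(+) cells. Cd34 was 2-fold lower there, at 223 and 516 FPKM (-1.21), and Lhx2 stood at 145 and 242 (-0.74). On the higher side, Krt15 was past the line at 5951 FPKM and a listed 0, so its call rests on that 0. Krt14 stood at 2144 and 1714 (0.32), and Itga6, Nfatc1 and Lgr5 were higher by less. In the first pair 4 of 9 epidermal differentiation markers were higher, against 60.9% of all measured genes. Of these markers 0 passed the line there, and their sums were 1517 and 1405. Cell cycle genes stood apart in both pairs. In LacZ(+) cells 10 of 10 were 2-fold higher, against 4.67% of all genes, summing to 159 and 23.2 FPKM with none at 0. Under the cKO label 8 of 9 measured were 2-fold lower, against 2.29%. Only Top2a (1.11 and 11.6 FPKM) and Cdk1 (1.19 and 8.84) reached 1 FPKM under that label, so the minimum fixed the direction of the others. It did the same for Foxm1, Bub1 and Plk1 in the LacZ pair, which were under 1 FPKM in LacZ(-) cells. The part of these lists in the values of Elovl4, Fabp5, Acsl1, Acsl4 and Insig2 was not tested. Fibroblast markers summed to 23.0 and 14.7 FPKM in the libraries labelled cKO and Het and to 8.74 and 17.7 in LacZ(+) and LacZ(-) cells. Of the 5 listed, 2 were measured in each pair, and Col1a1 alone passed the line, in the first pair (10.3 and 3.72). Lum is listed at 0 in the Het and LacZ(+) libraries. Leukocyte markers summed to 8.37 and 5.19 and to 4.55 and 3.46, with Lyz2 listed at 0 in LacZ(+) cells. Of these 5, 2 were measured in each pair and 0 passed the line. The part of fibroblast and leukocyte markers in Scd3 and the other values was not tested.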

How the data were processed

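RNA of sorted cells was sequenced in 4 libraries, 1 per group, with groups taken from the sample labels. Chromatin immunoprecipitation was done for the other 4 samples, which are not analysed here. The 2 gene tables of 32091 rows hold FPKM computed by the authors, per the file headers. The first also holds a log2 fold change by the authors, which equalled the log2 ratio of the deposited FPKM within 0.01 for 37 of 37 members. TopHat2 2.0.4, TopHat and Cufflinks 2.1.1 are named in the submitters' processing notes, and as builds GRCm38 and mm9, none with a role. The sources used here do not state how strand or multiply mapped reads were handled. Depth is unknown, because FPKM cannot be turned back into counts, and no counting interval is given. FPKM also divide by a library total, so abundant features can shift all other values.

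Columns were matched to samples by name, and 25 symbols turned into dates were restored from Ensembl identifiers. Rows of 1 symbol were summed (each member has 1 row). Intervals are those of the tables, taken as mm9; 11 of 37 members share theirs with another row. Further listed genes were matched by symbol, 6 of them by an older symbol. Python 3.11.15 with pandas 2.3.3 was used, and the steps were tested on simulated pairs. Only abundant genes were changed in these, by more than the 2-fold line, so calls near the line or at low levels were not covered. With 1 library per group no test was made.

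The members and lists were chosen with earlier results of these data known. All members are accounted for; named with values in every library are members 2-fold higher or lower and, per group, the 3 highest mean levels over the 4 libraries and the largest difference in each direction. Of the other lipid gene lists, genes past the line and the 2 highest mean levels are named; bulge and cell cycle lists are given by counts, sums or examples, short of that rule. Acsl3 and Cpt1a were added after their values were seen. Alternatives were pseudocounts of 0.1 and 5, no minimum and a minimum of 5 FPKM, upper-quartile scaling, centring, each symbol's highest row, only genes alone in their interval, and Scd1, Soat1 and Fabp5 counted as general fatty acid genes.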

Additional observations from a re-analysis of the deposited data

How the results depend on the processing

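No paired analysis was possible because each group has 1 library, and no library could be left out for the same reason. Of 188 recomputed medians and counts, 165 kept within 0.1 on the log2 scale, with the same sign, or within 1.5 times of the count. In the first pair, with genes alone in their interval the sterol median was -0.29; with pseudocount 0.1, 2 general fatty acid genes were 2-fold higher in place of 0; with pseudocount 5 or a minimum of 5 FPKM, 0 sebocyte genes were, in place of 1. Counts over all genes, higher and lower, were 144 and 159 with pseudocount 5 and 108 and 131 for genes alone in their interval, against 234 and 298. In the LacZ pair, centring and upper-quartile scaling gave medians of 0.13 and 0.11 for sterol genes, 0.57 and 0.55 for general fatty acid genes and 0.23 and 0.21 for sebocyte genes. The sebocyte median was 0.23 with no minimum and 0.43 with a minimum of 5 FPKM, and its count 0 without Scd1, Soat1 and Fabp5. Over all genes, counts were 282 higher and 178 lower with pseudocount 5 and 315 and 174 for genes alone in their interval, against 620 and 346; lower genes were 528 with pseudocount 0.1 and 224 after centring. Fewer genes enter when only those alone in their interval are kept or the minimum is 5 FPKM, and more enter with no minimum. A larger pseudocount makes every difference smaller in size, and a smaller one makes it larger. Centring moves all values of a pair by the same amount, and upper-quartile scaling multiplies each library by a single factor. Of 196 values of single members, 3 crossed the 2-fold line (Elovl7, 1.09 with pseudocount 0.1, and Scd3 and Acsl4, 0.43 and 0.83 with pseudocount 5), and 0 called values changed sign. No depth limit can be given without counts.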

Other observations

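Fatty acid oxidation genes, the route that breaks down what the synthesis genes build, stayed within 2-fold in both pairs. Of 13 listed, 13 were measured. Under the cKO label 8 were higher and 5 lower (median 0.06), and 5 were higher and 8 lower in LacZ(+) cells (median -0.07, or 0.10 when centred). The shares higher, 61.5% and 38.5%, were near those of all measured genes, 60.9% and 36.6%. Hadha, a subunit of the mitochondrial trifunctional protein, was the most abundant in each library, at 87.1 and 98.2 FPKM in the libraries labelled cKO and Het and 170.1 and 178.7 in LacZ(+) and LacZ(-) cells. Acaa2, a thiolase gene and second by the mean over the 4 libraries, stood at 68.4 and 62.5, and at 65.0 and 72.5. Cpt1a, which admits fatty acids to mitochondria, stood at 14.2 and 17.2, and at 21.1 and 18.0.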
